A study of Mus musculus with 12 samples.

Results

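Fibronectin and 5 matricellular proteins, encoded by Fn1, Thbs1, Thbs2, Tnc, Postn and Sparc, were followed in cultured and freshly isolated mouse hepatic stellate cells. The genes were chosen by name, and all 6 were among the 12081 genes of the table. RNA had been sequenced in 12 libraries of 4 groups with 3 libraries each. All cells came from livers of Hk2 fl/fl mice, in which the gene of the glycolytic enzyme hexokinase 2 can be removed by Cre recombinase. Hk2-deleted cells that were given 10 mM lactate for 24 h are called LAC. Hk2-deleted cells without added lactate (KO) had been transduced with an adenovirus that expresses Cre fused to eGFP (Ad-Cre), as had LAC cells. Activated cells (ACT) had received an adenovirus that expresses eGFP only (Ad-GFP), and transduced cells were cultured for 6 days. Freshly isolated, untreated cells with neither virus nor culture were taken as quiescent (QS). Levels are in CPM, a read count scaled by the authors to the size of the library. Fold changes were fitted on log2(CPM + 1), and a gene was called at a limma adjusted p under 0.05.

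Stellate cells store vitamin A in the healthy liver and become myofibroblasts that lay down scar matrix when they are activated. Fibronectin forms fibrils on which collagen is deposited and is among the early components of such a scar. Matricellular proteins are secreted into the matrix but mainly regulate it: they bind collagen, growth factors, proteases and cell surface receptors, and many are scarce in healthy adult tissue and abundant in wounds and fibrosis.

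Hk2 itself was 18.7 to 19.7 CPM in LAC, 10.7 to 13.7 CPM in KO, 181 to 182 CPM in ACT and 66.7 to 73.5 CPM in QS, so that it was lower in every Ad-Cre library than in any other library. Sequencing depth, estimated only roughly in M (megareads), ran from 4.35 to 14.0 per library. The 6 genes had between 101 and 157052 estimated reads in a library, so that counting error alone was at most 9.95% of a value (Tnc in one QS library). Of 15 stellate markers 14 were listed, and they summed to 3978 to 4131 CPM in LAC, 3693 to 3946 CPM in KO, 3036 to 3056 CPM in ACT and 5521 to 5677 CPM in QS. In KO vs ACT 10 were higher and 3 lower (median 1.77), and in ACT vs QS 4 were higher and 10 lower (median -2.95). Lrat, which esterifies vitamin A, was 14.0, 17.4, 3.09 and 352 CPM, Rgs5 was 88.0, 85.8, 8.46 and 569.6 CPM and Reln was 305, 412, 107 and 1375 CPM in LAC, KO, ACT and QS. Des ran the other way, at 186, 177, 346 and 23.8 CPM. Gfap was not analysed here. Acta2, the smooth muscle actin gene of myofibroblasts, was 1434 ± 33.7, 653 ± 29.1, 2656 ± 48.0 and 2.64 ± 1.18 CPM, and the collagen gene Col1a1 was 2691 ± 127, 1498 ± 67.9, 5341 ± 51.3 and 28.6 ± 0.925 CPM in LAC, KO, ACT and QS (SD, n = 3 each). Markers of other liver cells were present too, and their levels are given beside the results they move with. Whether libraries within a group stem from different mice or dishes is not stated in the labels. The p-values therefore reflect variation among the 3 libraries within a group, pooled over the 4 groups and moderated across genes. Part or all of that variation may be technical. In bulk RNA, fewer cells of a type and less RNA per cell cannot be told apart.

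The 6 genes followed different courses after deletion of Hk2 and addition of lactate. Fn1 fell in KO to 6.33% of its ACT level and stood at 18.3% of that level in LAC. Thbs1 was slightly lower in KO than in ACT, a direction that turned round with quantile normalization, and was above ACT in LAC. Thbs2, Tnc and Postn were higher in KO than in ACT and higher again in LAC, so that they lay further from ACT with lactate than without it. Sparc was higher in KO than in ACT, and its LAC and KO levels overlapped.

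Counted together, in LAC vs KO 5 of the 6 genes rose and none fell, where 41.0% of the 12081 genes passed the threshold (20.0% up, 21.0% down). At an unadjusted p under 0.05 the count of falls was also 0. In KO vs ACT 4 rose and 2 fell, where 62.4% of the 12081 genes passed the threshold (36.0% up, 26.3% down). In LAC vs ACT 5 rose and 1 fell, where 49.5% of the 12081 genes passed the threshold (27.8% up, 21.7% down). In ACT vs QS 5 rose and 1 fell, where 73.5% of the 12081 genes passed the threshold (38.0% up, 35.5% down). In KO vs QS all 6 rose, where 73.0% of the 12081 genes passed the threshold (37.4% up, 35.7% down). In LAC vs QS all 6 rose, where 73.6% of the 12081 genes passed the threshold (37.4% up, 36.2% down). Of the 5 genes called both in KO vs ACT and in LAC vs KO, 2 were called in opposite directions (Fn1 and Thbs1) and 3 in the same direction (Thbs2, Tnc and Postn). Among all genes, 3903 were called in both comparisons in opposite directions and 326 in the same direction. These are 32.3% and 2.70% of all 12081 genes, including those not called in both. Fn1 in LAC lay between KO and ACT, whereas Thbs1 in LAC lay above ACT (0.34), no closer to it than in KO (-0.30). With quantile normalization Thbs1 was called higher in both comparisons, so that 5 genes rose and 1 fell in KO vs ACT, 1 was called in opposite directions and 4 in the same direction. The KO libraries enter both comparisons with opposite signs, whereas LAC vs ACT does not contain them. The median log2 fold change of the 6 genes was 0.64 in LAC vs KO, 0.49 in KO vs ACT and 3.52 in ACT vs QS, where over all genes it was -0.02, 0.07 and 0.03. A two-sided exact permutation test of 3 against 3 libraries cannot give a p below 0.10.

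**Figure D1:**
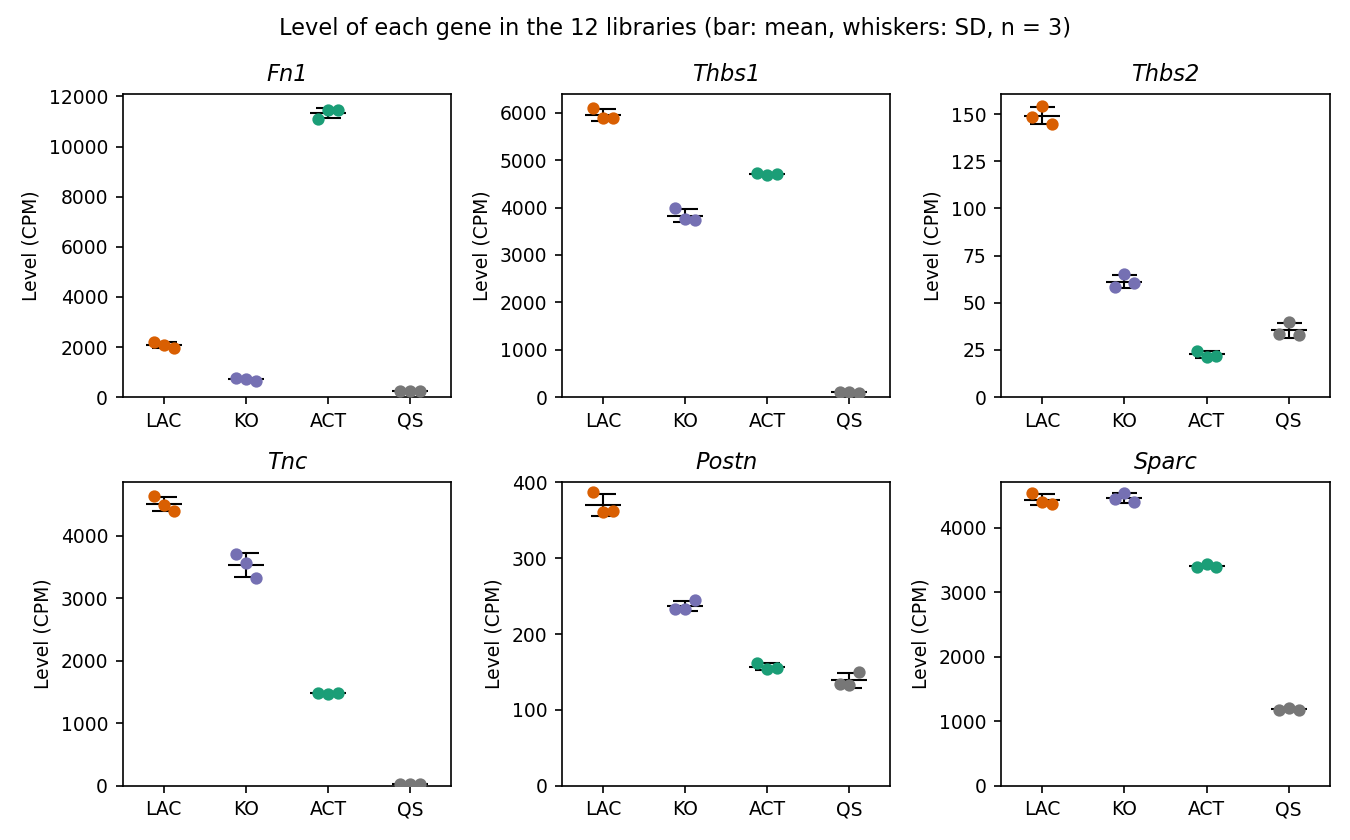
Level of each gene in CPM (vertical axes, starting at 0) in the 3 libraries of LAC, KO, ACT and QS, with mean and SD. Fn1 is highest in ACT, Thbs1, Thbs2, Tnc and Postn are highest in LAC, and only for Sparc do LAC and KO overlap.

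Fn1 (mm10, chromosome 1, 71585520 to 71653200, minus strand) encodes fibronectin. Its level was 2189, 2063 and 1981 CPM in the LAC libraries, 771, 732 and 650 CPM in KO, 11091, 11474 and 11446 CPM in ACT and 253, 240 and 241 CPM in QS. No groups overlapped, and the order was ACT, LAC, KO, QS. KO held 6.33% of the ACT level (log2 fold change -3.98, SE 0.05, limma adjusted p = 3.50e-16). LAC was higher than KO (1.53, SE 0.05, adjusted p = 4.02e-11) and held 18.3% of the ACT level. Of the distance in CPM between the KO and ACT means, the LAC libraries covered 11.9% to 13.9%. LAC thus stayed far below ACT (-2.45, SE 0.05, adjusted p = 1.54e-13). Among all 12081 genes the change of Fn1 in KO vs ACT was the fall of rank 201. In ACT vs QS it was the rise of rank 46 (5.53, SE 0.05, adjusted p = 7.21e-18).

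Fibronectin is also made by macrophages and mesothelial cells, and some of their markers moved with Fn1 between the cultured groups. Of 20 macrophage and Kupffer cell markers, 18 were lower and 1 (Mrc1) higher in KO than in ACT, and 15 were higher and 2 lower in LAC than in KO. The 7 myofibroblast markers were all lower in KO than in ACT and all higher in LAC than in KO, and summed to 7110 to 7439 CPM in LAC, 3488 to 3684 CPM in KO, 14874 to 14938 CPM in ACT and 410 to 450 CPM in QS. The macrophage markers summed to 3670 to 3710 CPM in LAC, 542 to 559 CPM in KO, 14986 to 15329 CPM in ACT and 7301 to 7353 CPM in QS. Most of the LAC and ACT sums came from Lyz2, which was 2240, 70.4, 9350 and 513 CPM in LAC, KO, ACT and QS. In ACT vs QS 10 of the macrophage markers were higher and 7 lower (median 0.18). Itgam, an integrin chain gene of myeloid cells, was 236, 4.48, 1037 and 155 CPM in LAC, KO, ACT and QS. Of the macrophage list only Timd4 was listed at 0, in LAC. The 10 listed mesothelial and cholangiocyte markers went both ways, with 3 higher and 4 lower in KO than in ACT (median -0.04) and 5 higher and 0 lower in LAC than in KO (median 0.31). They summed to 101 CPM in LAC, 70.9 to 72.3 CPM in KO, 208 to 223 CPM in ACT and 66.8 to 72.0 CPM in QS. In ACT the mesothelial genes Wt1, Upk3b, Upk1b and Gpm6a were at 79.8, 58.4, 30.5 and 19.6 CPM. These genes were at 0.896, 0.872, 1.01 and 1.64 CPM in KO and 5.89, 4.61, 5.19 and 1.56 CPM in LAC. In QS they were at 0.934, 5.65, 1.34 and 6.24 CPM. Msln, also mesothelial, was 2.55, 2.72, 1.95 and 5.06 CPM in LAC, KO, ACT and QS. The keratin genes ran otherwise. Krt19 was 24.3, 23.2, 7.07 and 1.26 CPM and Krt18 32.7, 25.4, 5.10 and 18.3 CPM in LAC, KO, ACT and QS. Against QS, KO had more Fn1 (1.54, SE 0.05, adjusted p = 5.84e-12). In each KO library the summed macrophage level was lower, and the summed myofibroblast level higher, than in any QS library. The endothelial and hepatocyte sums, given below, ran otherwise: both were highest in QS and lower in ACT than in KO. The part of macrophages, mesothelial cells, myofibroblasts, endothelial cells and hepatocytes in the course of Fn1 was not tested.

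**Figure D2:**
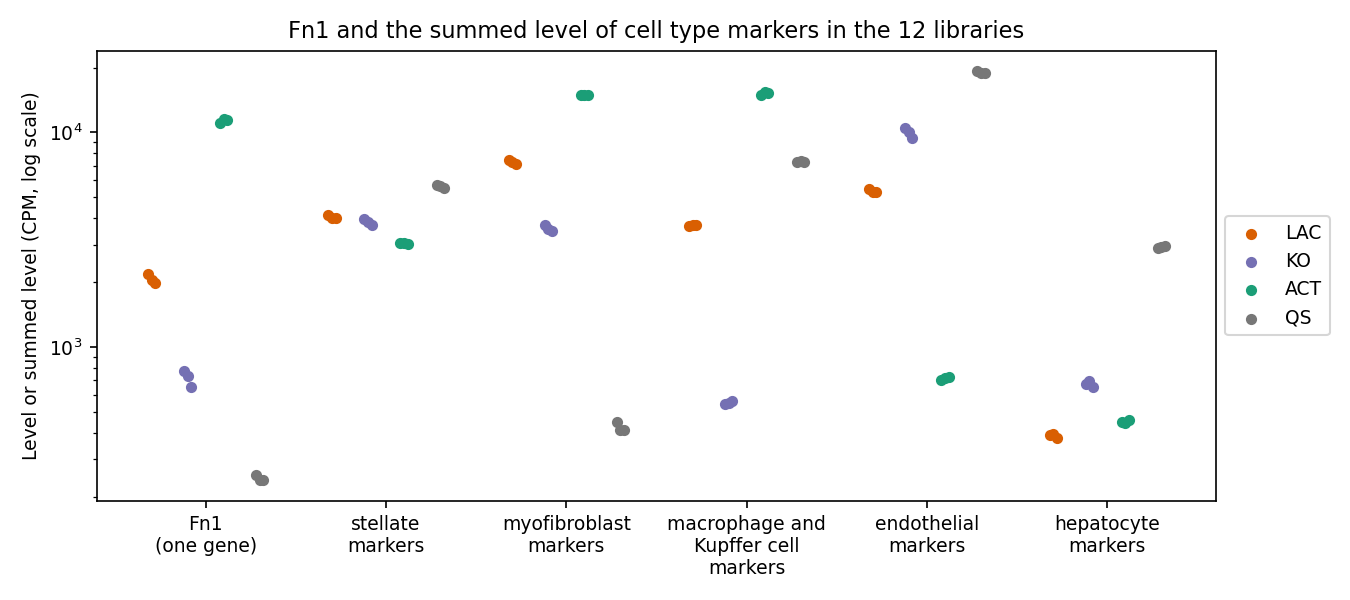
Fn1 and the summed level of 5 marker lists in every library of LAC, KO, ACT and QS, in CPM on a log axis. Fn1 and the sums of the myofibroblast and macrophage markers are each highest in ACT and higher in LAC than in KO. The endothelial sum is lowest in ACT. Most of the macrophage sums in LAC and ACT came from Lyz2. Most of the hepatocyte sums in LAC and ACT came from Trf and Ass1.

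The thrombospondin genes Thbs1 and Thbs2 encode related trimeric glycoproteins that inhibit the growth of blood vessels. Thrombospondin-1 can in addition release TGF-beta from its latent complex. The genes differed in level and in direction.

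Thbs1 (chromosome 2, 118111876 to 118127133, plus strand) was 6105, 5889 and 5880 CPM in LAC, 3995, 3753 and 3740 CPM in KO, 4721, 4677 and 4703 CPM in ACT and 102, 107 and 92.5 CPM in QS. Each group was apart from the others, with LAC at the top. KO was lower than ACT by a small amount (-0.30, SE 0.05, adjusted p = 6.61e-05). With quantile normalization between libraries this difference turned round (0.17, adjusted p = 0.0313), and it was negative under the other alternatives. LAC was higher than KO (0.64, SE 0.05, adjusted p = 8.03e-08) and also higher than ACT (0.34, SE 0.05, adjusted p = 2.52e-05). Quantile normalization put these differences at 1.07 and 1.24. The distance to QS was larger: ACT was 46.8-fold above QS, and KO and LAC were 38.1-fold and 59.3-fold above it.

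Thbs2 (chromosome 17, 14665500 to 14694235, minus strand) was 149, 154 and 145 CPM in LAC, 58.3, 65.3 and 60.2 CPM in KO, 24.5, 21.4 and 22.0 CPM in ACT and 33.4, 39.8 and 32.997 CPM in QS. It was the only one of the 6 genes with its lowest level in ACT, and no groups overlapped. It was higher in KO than in ACT (1.40, SE 0.08, adjusted p = 1.57e-09) and higher again in LAC than in KO (1.27, SE 0.08, adjusted p = 1.60e-08). LAC therefore stood at 660% of the ACT level (2.67, SE 0.08, adjusted p = 3.26e-12), the rise of rank 90 in that comparison. ACT was lower than QS (-0.62, SE 0.08, adjusted p = 6.38e-06). Scaled to transcript length, thrombospondin-1 transcripts exceeded those of thrombospondin-2 by a ratio of 40.3 ± 1.57 in LAC, 63.2 ± 5.59 in KO, 210 ± 13.7 in ACT and 2.87 ± 0.179 in QS (mean ± SD of the ratio, n = 3 each).

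Tenascin-C, encoded by Tnc, is a large multi-armed protein that appears in wounds and binds integrins and the receptor TLR4. Tnc (chromosome 4, 63959785 to 64047015, minus strand) was 4628, 4494 and 4395 CPM in LAC, 3709, 3562 and 3323 CPM in KO, 1487, 1471 and 1482 CPM in ACT and 21.1, 24.2 and 25.3 CPM in QS. The groups stood apart in the order LAC, KO, ACT, QS. KO reached 239% of the ACT level (1.25, SE 0.06, adjusted p = 1.12e-10). LAC was above KO by a smaller step (0.35, SE 0.06, adjusted p = 1.83e-04), which quantile normalization put at 0.77, and above ACT by 1.61 (SE 0.06, adjusted p = 1.82e-11). Against QS, Tnc had the rise of rank 4 of all genes in KO (7.17, SE 0.06, adjusted p = 2.47e-18) and of rank 5 in LAC (7.53, SE 0.06, adjusted p = 1.73e-18).

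Periostin, encoded by Postn, binds collagen and integrins and aids collagen crosslinking. Postn (chromosome 3, 54361109 to 54391037, plus strand) was 388, 361 and 362 CPM in LAC, 234, 233 and 245 CPM in KO, 162, 154 and 155 CPM in ACT and 134, 133 and 150 CPM in QS. The order was that of Tnc, but ACT and QS lay close together. ACT was higher than QS by 0.18 on the log2 scale (SE 0.05, adjusted p = 0.00525). That difference was not called when library totals left out mitochondrial transcripts and the markers of other cell types (0.11, adjusted p = 0.0608), and quantile normalization put it at 0.32. KO was above ACT (0.59, SE 0.05, adjusted p = 1.29e-07), LAC above KO (0.64, SE 0.05, adjusted p = 1.70e-07) and LAC above ACT (1.23, SE 0.05, adjusted p = 9.02e-11).

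The promoters of Thbs2, Tnc and Postn are shown because these 3 genes moved in the same way in KO and again in LAC. Each window runs from 250 bases before the RefSeq transcript start to 50 bases from it on GRCm38.p6, the mm10 assembly. It lies at chr17:14694213-14694512 on the minus strand for Thbs2, at chr4:64046966-64047265 on the minus strand for Tnc and at chr3:54360857-54361156 on the plus strand for Postn. For Tnc and Postn, which have more than one entry, the start nearest to the GENCODE M21 gene start was taken. Capitals mark every match on either strand to the motifs searched. These were the TATA box TATAAA, the SMAD-binding sequence CAGACA and the GC box with the letters GGGCGG. The others were the AP-1 sequence TGAGTCA, the cyclic AMP response element TGACGTCA, the TEAD sequence GGAATG and the CArG box of serum response factor, as well as the E box CACGTG and the hypoxia response sequence ACGTG that lies inside it.
Thbs2: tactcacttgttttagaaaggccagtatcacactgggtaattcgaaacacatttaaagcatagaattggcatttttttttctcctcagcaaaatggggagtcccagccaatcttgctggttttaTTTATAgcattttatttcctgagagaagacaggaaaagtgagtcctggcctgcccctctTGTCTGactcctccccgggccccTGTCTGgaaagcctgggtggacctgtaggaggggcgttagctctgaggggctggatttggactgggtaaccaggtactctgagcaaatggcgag
Tnc: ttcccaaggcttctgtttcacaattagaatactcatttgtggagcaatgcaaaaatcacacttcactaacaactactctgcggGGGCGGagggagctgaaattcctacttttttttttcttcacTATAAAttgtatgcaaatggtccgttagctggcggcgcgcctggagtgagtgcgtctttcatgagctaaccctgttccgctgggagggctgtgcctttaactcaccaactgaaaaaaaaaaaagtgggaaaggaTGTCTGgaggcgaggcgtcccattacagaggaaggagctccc
Postn: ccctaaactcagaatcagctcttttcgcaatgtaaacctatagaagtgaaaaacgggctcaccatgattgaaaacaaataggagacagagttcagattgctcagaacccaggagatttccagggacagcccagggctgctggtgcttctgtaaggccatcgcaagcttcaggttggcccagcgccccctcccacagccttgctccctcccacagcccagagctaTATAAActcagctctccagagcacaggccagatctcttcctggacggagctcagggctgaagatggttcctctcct
All 3 windows held TATAAA on one strand, which 13.6% of the 32851 promoter windows in the RefSeq table did. It began 26 bases before the start site in Postn and 126 bases before it in Thbs2 and in Tnc. CAGACA was in the Thbs2 and Tnc windows and in 21.0% of all windows, and GGGCGG in the Tnc window and in 35.7% of all. The other motifs were not in these 3 windows. Of all windows, 5.20% held TGAGTCA and 1.79% held TGACGTCA. The E box CACGTG was found in 7.15% and the shorter ACGTG in 19.6%. The TEAD sequence GGAATG was found in 14.7% and the CArG box in 1.63%. These matches describe the letters and were not tested for binding. The Sparc window, not shown, held CAGACA but not TATAAA, and its start lay 3103 bases from the GENCODE gene start. Promoters of Fn1 and Thbs1 were not analysed here.

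Osteonectin, the product of Sparc, binds collagen and calcium and is needed for orderly collagen fibrils. Sparc (chromosome 11, 55394500 to 55423183, minus strand) was 4536, 4398 and 4370 CPM in LAC, 4439, 4539 and 4396 CPM in KO, 3394, 3434 and 3389 CPM in ACT and 1179, 1201 and 1179 CPM in QS. It was the one gene whose LAC and KO libraries overlapped. The log2 fold change of LAC against KO was -0.01 (SE 0.03, adjusted p = 0.846), with a 95% interval of -4.74% to 3.84%. KO was above ACT (0.39, SE 0.03, adjusted p = 1.63e-08), as was LAC (0.38, SE 0.03, adjusted p = 3.61e-08), and quantile normalization put these at 0.90 and 0.84. ACT was 2.87-fold above QS (1.52, SE 0.03, adjusted p = 2.42e-15), and the alternatives put this log2 fold change between 1.16 and 1.60.

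Endothelial cells also make osteonectin and thrombospondins, and their markers differed between the groups. Of 19 endothelial markers, 18 were higher and 1 lower in KO than in ACT, and 1 was higher and 17 lower in LAC than in KO. They summed to 5248 to 5469 CPM in LAC, 9429 to 10429 CPM in KO, 706 to 724 CPM in ACT and 18881 to 19257 CPM in QS. None was at 0. The endothelial sum was higher in KO than in ACT, as were Thbs2, Tnc, Postn and Sparc. In LAC the sum was lower than in KO, and Thbs1, Thbs2, Tnc and Postn were higher. In QS the sum was highest, and Thbs1, Tnc, Postn and Sparc were at their lowest. The part of endothelial cells in the rise of Thbs2, Tnc, Postn and Sparc in KO was not tested. Of 20 hepatocyte markers, 18 were higher and 1 lower in KO than in ACT. In LAC vs KO 2 were higher and 18 lower. They summed to 376 to 393 CPM in LAC, 649 to 693 CPM in KO, 444 to 459 CPM in ACT and 2899 to 2952 CPM in QS. Most of the LAC and ACT sums came from Trf and Ass1. Trf was 121, 81.4, 305 and 449 CPM and Ass1 263, 233, 114 and 107 CPM in LAC, KO, ACT and QS. Alb was 0.601, 157, 10.6 and 1128 CPM. In LAC 7 of the markers were at 0, among them Apoa2 and Hpd, which were also at 0 in ACT. Of 11 portal fibroblast and smooth muscle markers 5 were listed, and they summed to 860 to 910, 383 to 401, 1356 to 1397 and 17.8 to 33.3 CPM in LAC, KO, ACT and QS. Of 14 lymphocyte and neutrophil markers 2 were listed, with sums of at most 6.27 CPM in any library.

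**Figure D3:**
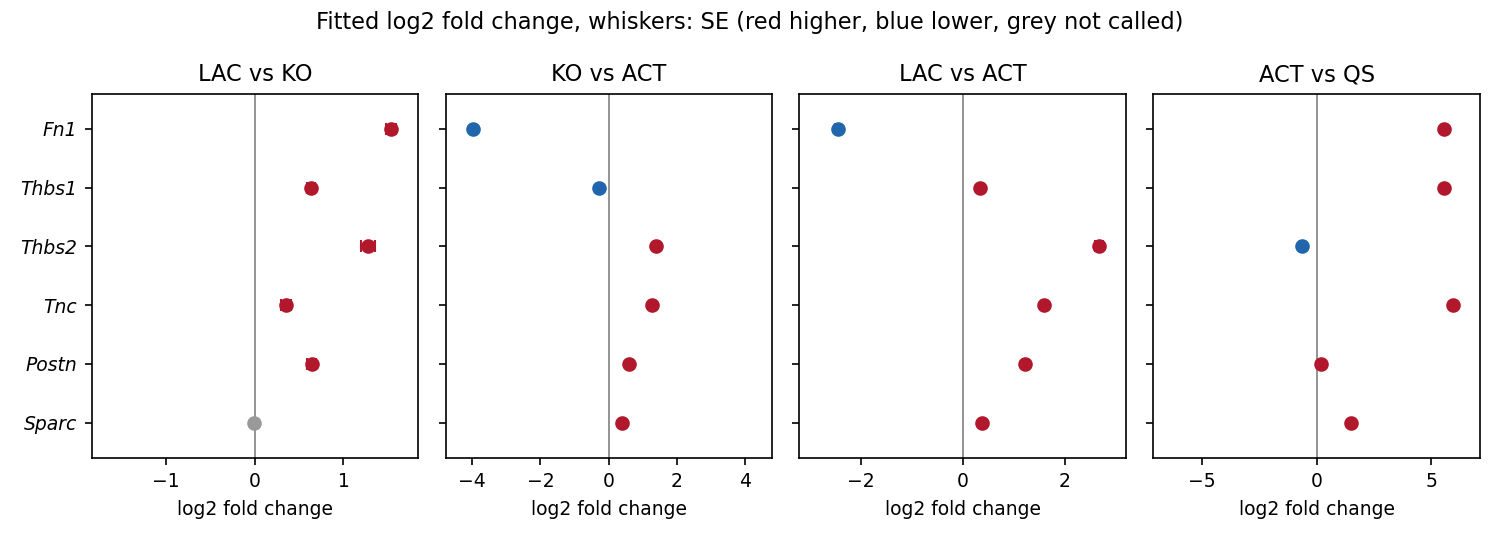
Fitted log2 fold change of each gene (horizontal axes, with SE) in LAC vs KO, KO vs ACT, LAC vs ACT and ACT vs QS. Thbs2, Tnc and Postn lie to the right of 0 in the first 3 panels, Fn1 and Thbs1 change side between the first panel and the second (Thbs1 not with quantile normalization), and Sparc lies at 0 in LAC vs KO.

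The 6 genes also differed in their shares of the transcripts. Scaled to the length of the longest coding transcript, the 6 genes summed to 3972 ± 93.1 CPM per kb in LAC, 3261 ± 68.1 in KO, 3909 ± 25.7 in ACT and 615 ± 5.46 in QS (SD, n = 3 each). Fn1 supplied 6.29% ± 0.175 of that sum in LAC, 2.64% ± 0.174 in KO, 34.9% ± 0.442 in ACT and 4.79% ± 0.176 in QS. The share of Tnc was 16.0% ± 0.0976 in LAC, 15.2% ± 0.539 in KO, 5.33% ± 0.0635 in ACT and 0.538% ± 0.0479 in QS. Sparc was the gene with the most transcripts per kb in all 4 groups, at 48.5% ± 0.173, 59.5% ± 0.997, 37.9% ± 0.212 and 83.9% ± 0.26 of the sum in LAC, KO, ACT and QS. The sums in LAC, 3900 to 4077 CPM per kb, overlapped those in ACT, 3881 to 3932 CPM per kb, while the shares of Fn1, Tnc, Thbs1 and Sparc did not overlap.

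**Figure D4:**
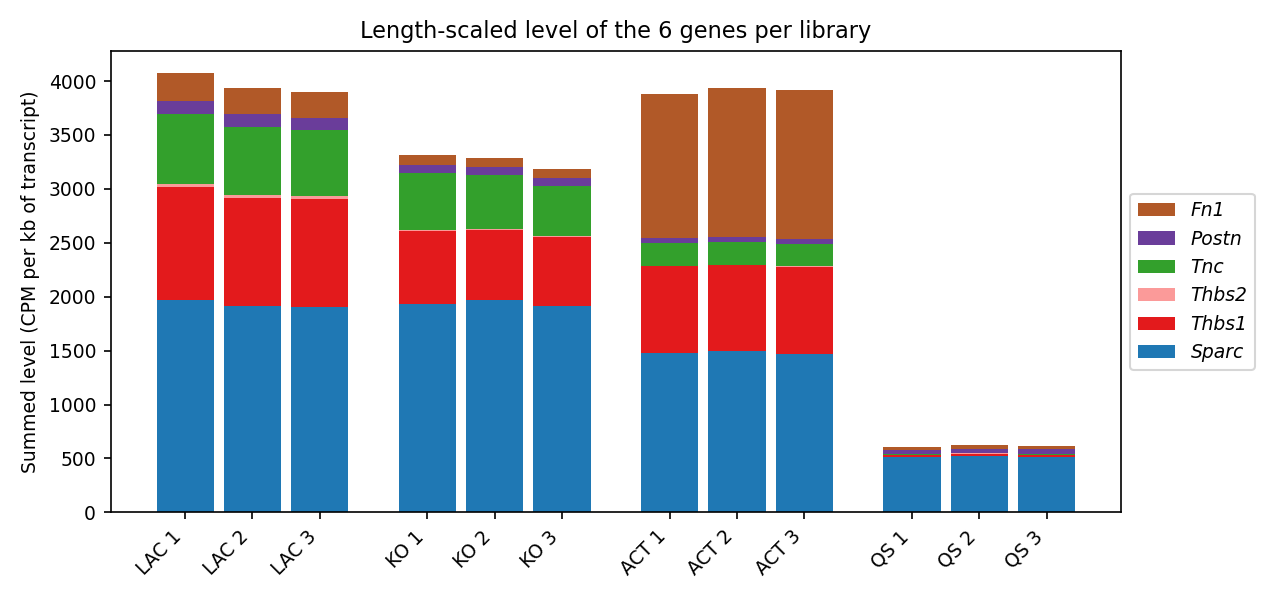
Level of the 6 genes divided by transcript length (CPM per kb, stacked bars from 0) in each library. The LAC and ACT bars are of like height, near 3972 and 3909 CPM per kb on average, but Fn1 is a large part of the ACT bars only.

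Genes with the most similar course were found by the root-mean-square difference of centred log2(CPM + 1) values over the 12 libraries. Nearest to Fn1 was Col1a2, a chain of type I collagen, at a difference of 0.29. Its levels were 691 ± 7.22 CPM in LAC, 213 ± 3.53 CPM in KO, 3305 ± 18.6 CPM in ACT and 116 ± 7.22 CPM in QS. Aldh1a2, which makes retinoic acid, and the transcription factor gene Myrf came next (0.33 and 0.36). Nearest to Thbs1 were Fhl2 (0.21), which was listed at 0 in QS, the heparan sulfate editing gene Sulf2 (0.21) and the adenylate kinase gene Ak1 (0.28), although in KO vs ACT Ak1 was called higher and Fhl2 and Sulf2 were not called. Thbs2 had no gene closer than Ppp1r14a (0.32), followed by Dsp (0.36) and Bmp10 (0.40). Nearest to Tnc were Serpinb9b (0.21), the matrix protease gene Mmp10 (0.50) and Spon2 (0.57). Serpinb9b was 355 ± 4.01, 240 ± 3.03, 132 ± 3.65 and 1.33 ± 0.199 CPM in LAC, KO, ACT and QS. Nearest to Postn were the glypican gene Gpc4 (0.13), the cyclin gene Ccnd1 (0.16) and the lysophosphatidic acid receptor gene Lpar1 (0.16). Sparc had the closest neighbours, with the receptor kinase gene Axl at 0.06, Cldn12 at 0.08 and Emp1 at 0.09. The likeness is a description over libraries that fall into 4 groups.

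Other matricellular genes also moved in both directions, and the shares of all genes called in each comparison, given above, apply to them too. Of 27 chosen by name, 17 were listed. In LAC vs KO 8 were called higher and 4 lower (median 0.31), in KO vs ACT 6 higher and 7 lower (median -0.16, and 0.02 with quantile normalization) and in ACT vs QS 9 higher and 6 lower (median 1.68). Spp1, which encodes osteopontin, fell in KO vs ACT and rose in LAC vs KO, as Fn1 did, and was at 1030.3 ± 9.88 CPM in LAC, 123 ± 2.05 CPM in KO, 5084 ± 88.0 CPM in ACT and 97.8 ± 5.82 CPM in QS. The galectin gene Lgals3 changed in the same directions, with 413 ± 7.52, 53.6 ± 1.55, 1163 ± 30.2 and 272 ± 17.3 CPM in LAC, KO, ACT and QS. Both genes are expressed by macrophages, whose markers are given above. Fstl1 rose in ACT vs QS (4.13), to 990 ± 17.5 CPM in ACT against 55.8 ± 2.10 CPM in QS. Sparcl1, the close relative of Sparc, fell in the same comparison (-4.75), with 1.46 ± 0.164 CPM in ACT against 65.1 ± 2.62 CPM in QS. Vtn, the vitronectin gene of hepatocytes, was listed at 0 in the LAC libraries and averaged 4.43 CPM in KO, 0.0357 CPM in ACT and 31.7 CPM in QS. Ccn5 was listed at 0 in QS and averaged 4.77, 0.934 and 4.29 CPM in LAC, KO and ACT.

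Receptors and binding partners went both ways. All 31 chosen by name were listed. In LAC vs KO 15 were higher and 10 lower (median 0.13), where 20.0% of all genes rose and 21.0% fell. In KO vs ACT 14 were higher and 14 lower (median 0.11), where 36.0% of all genes rose and 26.3% fell. In ACT vs QS 17 were higher and 11 lower (median 1.24), where 38.0% of all genes rose and 35.5% fell. The integrin genes Itga4, a receptor chain for fibronectin, and Itgb5, a receptor chain for vitronectin and periostin, were lower in KO and higher in LAC. Itga4 was 115 ± 4.26 CPM in LAC, 35.1 ± 2.64 CPM in KO, 186 ± 6.81 CPM in ACT and 37.0 ± 3.51 CPM in QS. Itgb5 was 224 ± 3.37, 84.0 ± 1.38, 318 ± 2.33 and 51.3 ± 4.48 CPM in LAC, KO, ACT and QS. Itga8, whose integrin binds fibronectin and tenascin-C, ran the other way, at 23.1 ± 1.96 CPM in LAC, 57.7 ± 3.61 CPM in KO, 5.24 ± 0.674 CPM in ACT and 130 ± 8.10 CPM in QS. Cd36, a thrombospondin receptor, fell in LAC vs KO (-1.95), and Itga2, a collagen receptor chain, rose (1.39). Egfr (3.34) and the collagen receptor gene Ddr1 (3.77) rose in ACT vs QS. Stab1 and Stab2, scavenger receptors of liver endothelium, rose in KO vs ACT (2.10 and 4.48), as did most of the endothelial markers, of which Stab2 is one.

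Among genes of proteases and crosslinking enzymes, more fell than rose in KO vs ACT and more rose than fell in LAC vs KO. Of 35 chosen by name 32 were listed. In LAC vs KO 21 rose and 4 fell (median 0.47), where 20.0% of all genes rose and 21.0% fell. In KO vs ACT 5 rose and 21 fell (median -0.79), where 36.0% of all genes rose and 26.3% fell. In ACT vs QS 25 rose and 5 fell (median 1.49), where 38.0% of all genes rose and 35.5% fell. Lox, which crosslinks collagen and is also on the myofibroblast list, was 318 ± 6.72 CPM in LAC, 70.6 ± 5.38 CPM in KO, 517 ± 18.0 CPM in ACT and 0.864 ± 0.34 CPM in QS. Tll1, a protease of the Bmp1 family, rose in ACT vs QS (6.28). Mmp12, the macrophage elastase gene, was 470 ± 8.33 CPM in LAC, 27.1 ± 1.07 CPM in KO, 2522 ± 62.7 CPM in ACT and 61.8 ± 4.85 CPM in QS. Adam8 (3.96 in LAC vs KO and -6.08 in KO vs ACT) and Mmp9 (1.90 and -4.48), which are also expressed by myeloid cells, moved alike, and the part of macrophages in these counts was not tested. Dpp4, a cell surface peptidase gene, rose in KO vs ACT (3.74) and was lower in ACT than in QS (-6.11).

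**Figure D5:**
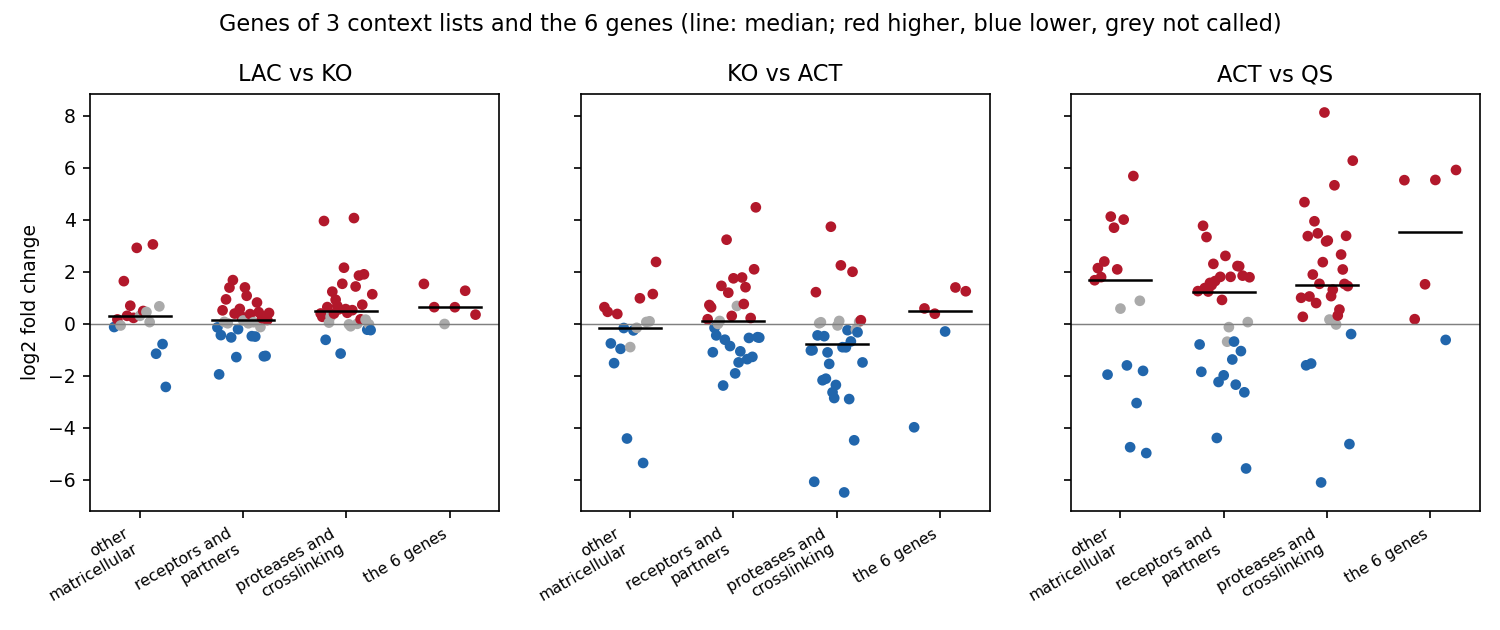
Log2 fold changes (vertical axis) of the listed genes of the 3 lists and of the 6 genes in LAC vs KO, KO vs ACT and ACT vs QS, with medians as lines. The proteases and crosslinking enzymes have a median of -0.79 in KO vs ACT and 0.47 in LAC vs KO, while the medians of receptors lie near 0 in both.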

How the data were processed

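RNA of primary mouse hepatic stellate cells, isolated by density gradient centrifugation, had been sequenced from stranded poly(A) libraries, per the labels' protocols. The deposited table holds CPM values, which were treated as a signal because its column totals run from 959233 to 1047042 and not to a fixed sum. The tools kallisto 0.44.0, edgeR 3.8, cutadapt 1.18 and FastQC 0.11.8 and the build mm10 are listed without roles, per the submitters' processing notes. No gene is below 1 CPM in more than 9 of the libraries. Of the positive values, 19.1% to 25.7% per library lay within 0.01 of a whole read, so reads could not be recovered, and depth was estimated from the step of low values. Within each group the libraries were distinct (chi-square per gene 2.23 to 4.63).

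Limma 3.58.1 in R 4.3.3 was fitted to log2(CPM + 1) of all genes, with 4 group means over the 12 libraries, 8 residual degrees of freedom and moderation along the intensity trend. P-values were adjusted by Benjamini-Hochberg over all genes within each of 6 comparisons. The fit was tested on simulated data. Intervals use the fitted SE and 8 degrees of freedom. Gene positions and transcript lengths are from GENCODE M21 (mm10), and promoters from RefSeq, which held 4 of the 6 genes. The genes, context lists and marker lists (stellate, myofibroblast, macrophage, endothelial, hepatocyte, mesothelial and cholangiocyte, portal fibroblast and smooth muscle, lymphocyte and neutrophil) were chosen with earlier results of these data known. Genes named beyond the 6 were the 3 nearest in course to each, among those with at least 10 CPM in a group and without predicted genes, and up to 4 called genes per context list and comparison with the largest change, without regard to direction. A few further genes were named from the marker lists after their values were seen. Among them were Reln, Rgs5, Lrat, Des, Itgam, Lyz2, Wt1, Upk3b, Upk1b, Gpm6a, Msln, Krt18, Krt19, Alb, Trf and Ass1. Alternatives were other pseudocounts (0.1, 0.5, 5), a filter at 5 CPM, other scalings, the replicate number as a block, fewer libraries in the fit, other moderation, weights, other thresholds and leaving out each library.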

Additional observations from a re-analysis of the deposited data

How the results depend on the processing

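Most results kept their direction and their side of the threshold under the alternatives tried. With quantile normalization 5 of the 6 genes were higher and 1 lower in KO vs ACT, since the Thbs1 change became 0.17, so that 1 gene was called in opposite directions in KO vs ACT and LAC vs KO and 4 in the same direction, and the cause was not tested. The log2 fold change of Sparc in LAC vs KO, which was not called, turned positive with median-of-ratios scaling (0.0392) and ranged from -0.0242 to 0.00528 when single libraries were left out. Postn in ACT vs QS was not called when totals excluded marker and mitochondrial genes (0.11). Requiring an absolute log2 fold change of at least 1 left 0 of the genes lower in ACT vs QS, 2 higher and 1 lower in KO vs ACT, 2 higher in LAC vs KO and 3 higher in LAC vs ACT, with 1 called in opposite directions and 1 in the same direction. The share of all genes called was then 31.2% in ACT vs QS, 18.9% in KO vs ACT, 7.30% in LAC vs KO, 12.6% in LAC vs ACT, 27.6% in KO vs QS and 30.02% in LAC vs QS.

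Leaving out any 1 library changed no count of the 6 genes, and where a group was left with 2 libraries the fit pooled the spread over all groups. Scaling each library to an equal total moved the median of all genes in KO vs QS by 0.10. Same-numbered libraries showed no clear pairing. The correlations of their deviations from the group means ran from -0.05 to 0.14 (median 0.02), with 2 of 18 over 0.1. Between libraries of different number they ran from -0.11 to 0.10 (median -0.02), with 1 of 36 over 0.1. With the replicate number as a block, 5 genes were higher in LAC vs KO, 4 higher and 2 lower in KO vs ACT, and 5 higher and 1 lower in ACT vs QS, and the block changed no call of the 6 genes. The Fn1 change in LAC vs KO was 1.53 under the block. The reads of QS libraries were the fewest for Tnc, where counting error limits small differences.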
